A study of Mus musculus with 12 samples.

Results

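Guanylate-binding proteins (GBPs) and immunity-related GTPases (IRGs) are 2 families of GTP-hydrolysing proteins that interferons induce in mouse cells. 10 of their genes are described here in CD4+ T cells given IL-12: the GBP genes Gbp2, Gbp3, Gbp5, Gbp6 and Gbp7, and the IRG genes Irgm1, Irgm2, Igtp, Iigp1 and Ifi47. They were chosen by name, as members of the families, among 21145 gene symbols annotated on the array. All 10 were found, on 9 probe sets. Gbp3, Gbp5, Gbp7, Irgm1 and Iigp1 each had a probe set of their own, while the other 5 genes lay on 4 probe sets annotated to several genes. One was shared by Gbp2 and its neighbour Gbp2b, one by Irgm2 and Igtp, one by Ifi47 and the olfactory receptor gene Olfr56, and one by Gbp6 with Gbp4, Gbp8, Gbp9, Gbp10 and Gbp11, 6 genes in all. The value of a shared probe set cannot be assigned to 1 gene.

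The series holds 12 samples, each on 1 Affymetrix Mouse Gene 1.0 ST array, a platform that reads many probes along each transcript. All came from the spleen of male C57BL/6 mice aged 6 weeks. CD4+ T cells were enriched by negative selection, which removes other cells, and were activated over 48 h with beads carrying antibodies to CD3 and CD28. The groups were IL-12 (100 U/ml) over 8 h with 4 samples, IL-12 over 2 h with 5, untreated at 2 h with 2, and a baseline of 1 with no stated culture time. Each title ends in a number, which is 2 to 6 for IL-12, 7 and 8 for untreated and 5 for baseline. What the numbers mean is not given, and numbers 2 to 4 and 5 to 8 were treated as 2 runs. There was no untreated sample at 8 h and no untreated sample in the run numbered 2 to 4. Whether the samples within a group are separate mice or cultures, or pools of animals, is not stated. The p-values therefore reflect the scatter among these arrays alone, and that scatter may be technical.

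Values are log2 intensities, and the number of arrays limits their precision. Array medians lay between 7.33 and 7.39. CD4 T cell markers were bright on all arrays, with a mean log2 intensity of 12.01 or above over 7 of 8 listed markers. Means over 14 of 15 listed macrophage and monocyte markers, cells that also express GBP and IRG genes, moved with the run: 6.35 to 6.37 in IL-12 8 h and 6.38 to 6.41 in IL-12 2 h arrays numbered 2 to 4, against 6.55 to 6.64 and 6.56 to 6.65 in those numbered 5 to 6. The untreated arrays, all in the second run, had 6.64 and 6.75, against 6.5 in the baseline array. The part of these cells in the results was not tested beyond a fit with their marker mean as a covariate.

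GBPs and IRGs act inside the cell against microbes that live in vacuoles. Interferon-gamma, which Th1 cells secrete, binds a receptor of the chains IFNGR1 and IFNGR2 and activates JAK kinases. Promoters of its target genes carry sites called GAS (gamma-activated sequence) and ISRE (interferon-stimulated response element), and the transcription factor IRF1 binds the ISRE. GBPs coat vacuoles and free bacteria and promote inflammasome signalling. Among IRGs, Irgm1, Irgm2 and Igtp (also called Irgm3) are the regulators, which keep the effector IRGs inactive on the cell's own membranes, while Iigp1 (Irga6) and Ifi47 (Irgd) belong to the effector kind. In T cells Irgm1 is known for protecting them from death after interferon-gamma. IL-12 acts through STAT4 and makes T cells produce interferon-gamma.

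Promoter windows from RefSeq (assembly GRCm38.p6) ran from 250 bases before to 50 after the annotated start. The windows used here covered 8 of the 10 genes, all but Gbp6 and Iigp1. Gbp6 and Iigp1 were not searched, so the counts below leave them out and say nothing of their promoters. Gbp3 has 2 starts, so there were 9 windows in all. They were searched for GAS as TTCNNNGAA, which is its own reverse complement, and for ISRE as GAAA, any 2 bases and GAAA again, which reads TTTC, 2 bases and TTTC on the other strand. ISRE letters were in 7 of the 9 windows and GAS letters in 4, against 3.44% and 8.30% of all 32851 windows. Both were in the windows of Gbp5, Gbp7, Igtp and Irgm2, against 0.454% of all windows. The window of Ifi47 and one of those of Gbp3 held neither, which says only that these letters are absent there. A match is a description of sequence and not evidence of binding.

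The stretches that carry the matches are shown on the gene's own strand because they let members be compared by site content, with matches in capitals and up to 15 bases on each side. Gbp5 (chr3:142496684-142496905, plus strand) has GAS letters starting 245 and 52 bases before the start of the gene and ISRE letters between them. Gbp7 (chr3:142530215-142530307, plus strand) has GAS letters 106 and 87 bases before the start and ISRE letters at 53. Gbp3 (chr3:142559984-142560029, plus strand) has overlapping ISRE matches starting 45 and 39 bases before it. Gbp2 (chr3:142620589-142620628, plus strand) has ISRE letters at 59. Irgm1 (chr11:48871420-48871465, minus strand) has overlapping ISRE matches at 30 and 24.
Gbp5: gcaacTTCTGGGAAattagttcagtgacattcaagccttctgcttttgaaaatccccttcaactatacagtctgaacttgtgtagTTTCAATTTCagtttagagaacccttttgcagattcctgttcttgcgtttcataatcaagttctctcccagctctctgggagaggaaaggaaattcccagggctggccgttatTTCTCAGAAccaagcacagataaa
Gbp7: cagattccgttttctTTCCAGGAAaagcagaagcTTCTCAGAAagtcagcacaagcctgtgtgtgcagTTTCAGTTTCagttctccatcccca
Gbp3: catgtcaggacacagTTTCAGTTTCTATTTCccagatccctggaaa
Gbp2: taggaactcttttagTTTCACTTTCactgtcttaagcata
Irgm1: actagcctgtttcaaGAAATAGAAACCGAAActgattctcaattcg

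Igtp (chr11:58199496-58199546, plus strand) and Irgm2 (chr11:58214887-58214937, plus strand), neighbours that share a probe set, carry a GAS match followed after 2 bases by an ISRE match. They start 45 and 34 bases before the start of Igtp, and 75 and 64 before that of Irgm2. The IRG relatives Tgtp1 (chr11:48992299-48992349, minus strand) and Tgtp2 (chr11:49064258-49064308, minus strand), which code for the effector Irgb6, carry the same order at 88 and 77 and at 81 and 70 bases. These 4 are shown together because the near-identical stretches stand in genes whose probe sets are also shared.
Igtp: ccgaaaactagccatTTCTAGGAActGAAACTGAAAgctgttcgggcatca
Irgm2: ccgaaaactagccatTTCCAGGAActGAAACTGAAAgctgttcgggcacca
Tgtp1: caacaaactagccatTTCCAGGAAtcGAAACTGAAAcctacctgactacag
Tgtp2: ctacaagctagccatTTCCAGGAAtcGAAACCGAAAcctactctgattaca

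All 9 probe sets were bright. Their mean log2 intensity lay between 9.77 (Gbp3) and 13.27 (Gbp2/Gbp2b), at the 78.7th to 98.7th percentile of all 24922 probe sets. Levels of different probe sets are not compared, since their probes differ. The mean over the 9 probe sets was 11.15 ± 0.04 in IL-12 8 h, 11.38 ± 0.12 in IL-12 2 h and 10.94 ± 0.03 in untreated samples (SD, n = 4, 5 and 2), and 10.98 in the baseline sample. The IL-12 2 h group had the highest mean. In RNA from a whole culture, fewer cells of a type and less RNA per cell cannot be told apart.

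**Figure D1:**
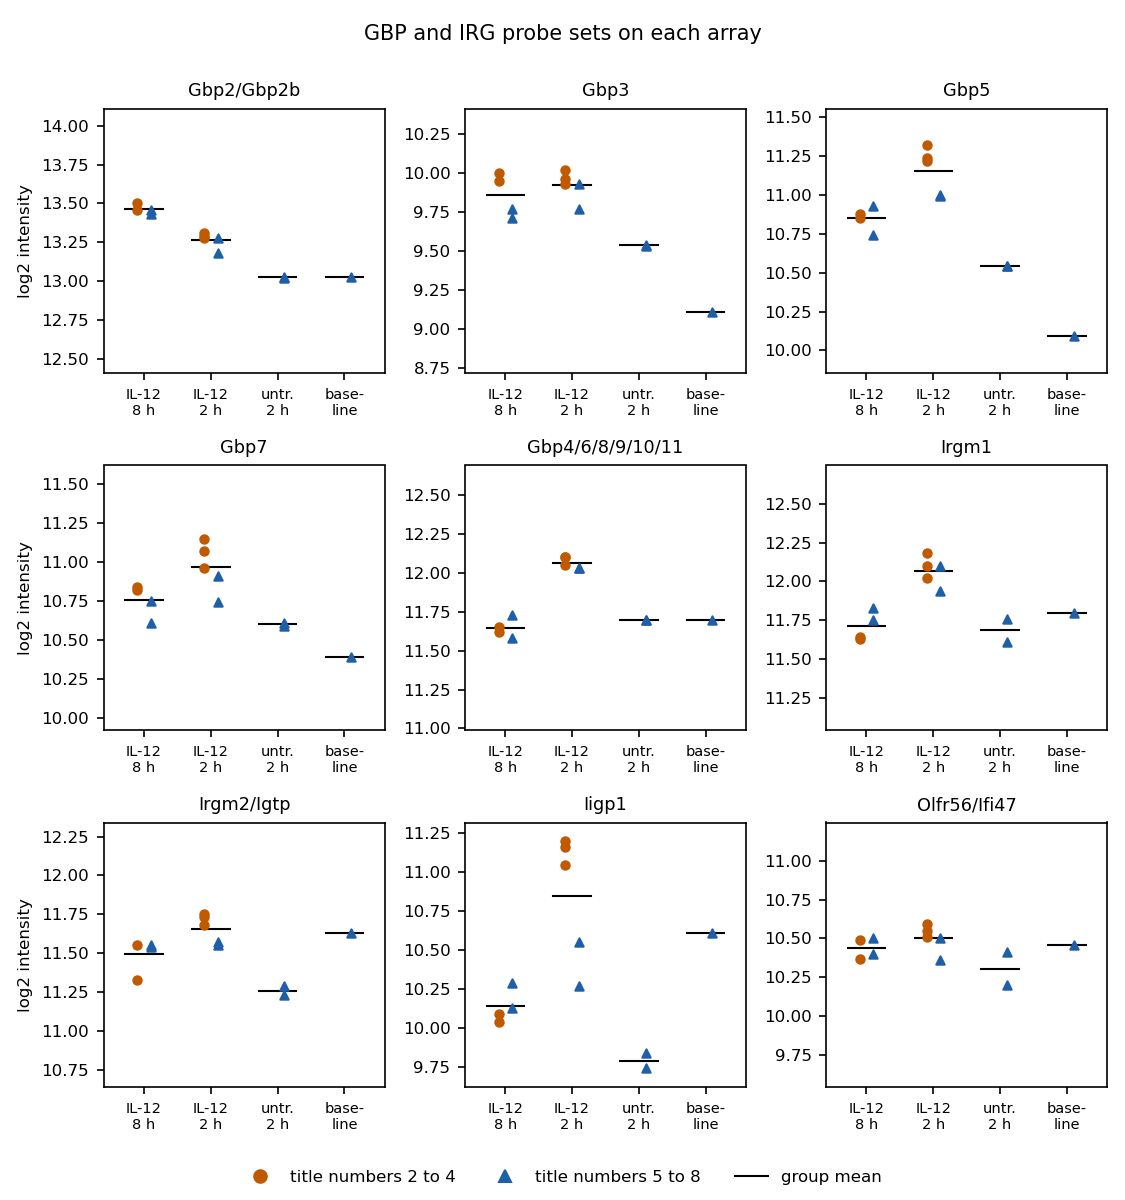
Log2 intensity (vertical axes, each spanning the same range) of the 9 member probe sets on each of the 12 arrays, by group; circles are title numbers 2 to 4, triangles 5 to 8, and lines group means. IL-12 2 h arrays lie above the untreated arrays in 8 of the 9 panels, and in the Iigp1 panel the 3 IL-12 2 h arrays numbered 2 to 4 (11.05 to 11.20) stand above the other 2 (10.27 and 10.55).

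The comparison of IL-12 2 h with untreated 2 h asks what IL-12 does to these genes at a matched time. All 9 probe sets had a positive log2 change, between 0.16 and 0.86 with a median of 0.35, while the median over all 19752 genes was 0.00. None of them passed the test across all genes (limma, Benjamini-Hochberg adjusted p under 0.05): 0 of the 5 members with a probe set of their own, against 0.0709% of all genes called higher and 0% called lower, and 0 of the 4 shared probe sets, against 0.0562% and 0% of all probe sets. At an unadjusted p under 0.05 the counts were 5 of 5 and 3 of 4, against 4.92% of all genes. In this comparison 14 genes passed in all. IL-12 2 h arrays lay wholly above untreated ones for all 5 members with their own probe set and for 3 of the 4 shared sets, an arrangement that 6.58% of all genes showed.

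Gbp5, which promotes assembly of the NLRP3 inflammasome, had 11.24, 11.32, 11.22, 10.99 and 11 in the IL-12 2 h samples (numbers 2, 3, 4, 5 and 6), against 10.54 and 10.54 in the untreated samples. Every IL-12 2 h array was above both untreated arrays, and those numbered 2 to 4 were the higher ones. The log2 change was 0.52 ± 0.09 (limma adjusted p = 0.0513), just short of the threshold. Without IL-12 8 h array 5, which changes the shared spread, the adjusted p was 0.0426, and over the other processing settings it ran between 0.0332 and 0.788.

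Iigp1, the effector IRG Irga6, had 11.20, 11.05, 11.16, 10.27 and 10.55 in the IL-12 2 h samples, against 9.74 and 9.84 in the untreated samples. Its log2 change was the largest of the members, at 0.86 ± 0.19 (adjusted p = 0.219). The IL-12 2 h group was split by run, which enters this error. Without IL-12 2 h array 5 the change was 1.07 (adjusted p = 0.0343). Compared among numbers 5 to 8, with the spread taken within group and run over all 12 arrays, it was 0.62 (adjusted p = 0.0407). It did not pass when only arrays numbered 5 to 8 were fitted.

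Irgm1, the regulator known from T cell survival, had 12.18, 12.02, 12.10, 11.94 and 12.10 in the IL-12 2 h samples, against 11.61 and 11.76 in the untreated samples, a log2 change of 0.40 ± 0.09 (adjusted p = 0.357). The groups did not overlap. Gbp3 had 10.02, 9.96, 9.93, 9.77 and 9.93 in the IL-12 2 h samples, against 9.54 and 9.53 in the untreated samples (0.28 ± 0.08, adjusted p = 0.639). Gbp7, which helps oxidase assembly on vacuoles, had 11.07, 11.15, 10.96, 10.74 and 10.91, against 10.61 and 10.59 (0.25 ± 0.09, adjusted p = 0.863). Neither pair of groups overlapped.

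Of the shared sets, Irgm2/Igtp had 11.73, 11.68, 11.75, 11.57 and 11.55 in the IL-12 2 h samples, against 11.29 and 11.23 in the untreated samples (0.37 ± 0.09). The 6-gene Gbp set had 12.03 to 12.10, against 11.70 and 11.70 (0.35 ± 0.07). In both the untreated arrays were the lower ones throughout. Gbp2/Gbp2b had 13.18 to 13.31, against 13.03 and 13.02 (0.21 ± 0.07). Olfr56/Ifi47 had 10.36 to 10.59, against 10.20 and 10.41 (0.16 ± 0.09), and its groups overlapped. Adjusted p for the 4 sets lay between 0.167 and 0.996.

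Among relatives of the members measured with their own probe set, 0 of 10 passed at 2 h against untreated, 8 of 10 had a positive change, and the median was 0.34. The largest change was that of Gm4951, an uncharacterised relative of Iigp1 with 10.69, 10.51, 10.59, 9.55 and 9.92 in the IL-12 2 h samples, against 8.84 and 9.0 in the untreated ones (log2 1.10 ± 0.22, adjusted p = 0.161, and 0.0229 without IL-12 2 h array 5). Gm12250, the effector Irgb10 (0.41 ± 0.10), Gbp11 (0.42 ± 0.11) and Gm4841 (0.59 ± 0.15) came next by p, and none of them passed. Both Tgtp1/Tgtp2 probe sets lay at 0.35 and 0.36 and did not pass. Gbp2b, on its own probe set, was dim in every sample, between 6.59 and 7.02, below the gene median of 7.37.

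The interferon-gamma gene was among the 14 that passed. Ifng had 11.90, 12.04, 12, 11.25 and 11.20 in the IL-12 2 h samples, against 9.69 and 9.40 in the untreated samples (log2 1.94 ± 0.20, limma adjusted p = 0.0025). Among numbers 5 to 8, the run that holds the untreated arrays, the difference of the Ifng group means was 1.68. Ifng was the one gene of 19 measured in the interferon-gamma signalling list that rose, and 0 fell, with a list median of 0.17. Irf1, the transcription factor of the ISRE, had a change of 0.26 ± 0.09 (adjusted p = 0.863) and Socs1, the inhibitor of JAK kinases that interferon induces, one of 0.27 ± 0.14 (adjusted p = 0.999). The receptor genes Ifngr1 and Ifngr2 stood at -0.17 ± 0.13 and -0.13 ± 0.12, and neither passed. In the other lists 0 genes passed: 0 of 21 for antigen presentation and further interferon-gamma targets (median -0.02), 0 of 26 type I interferon-stimulated genes (0.18), 0 of 11 of the ATG8 conjugation machinery (-0.03) and 0 of 8 inflammasome genes (0.06).

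**Figure D2:**
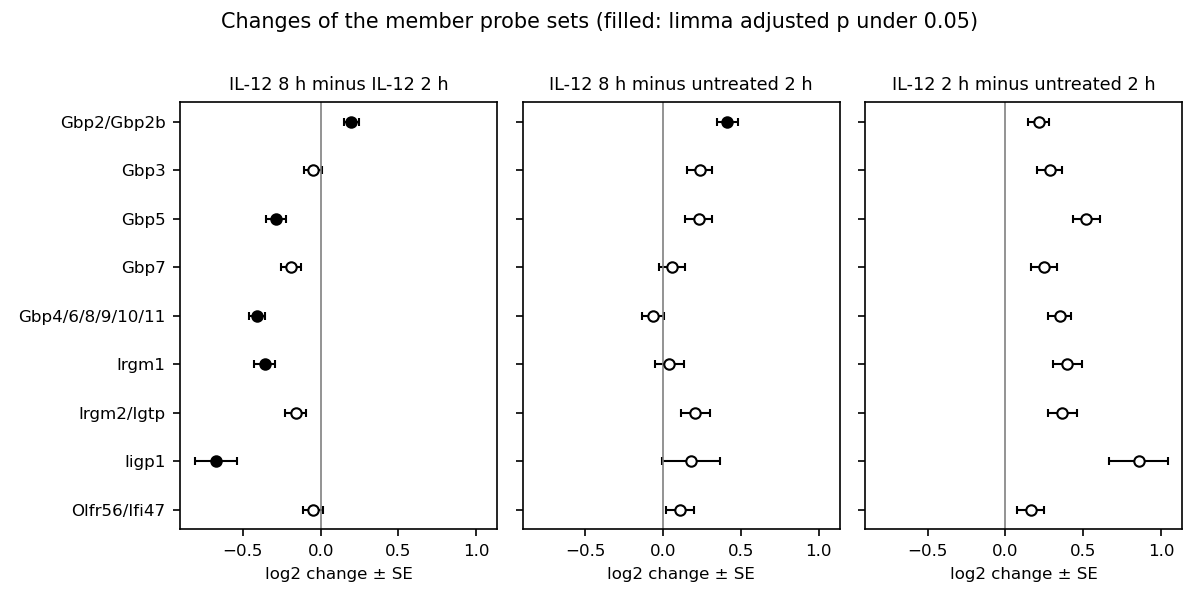
Log2 change ± SE (horizontal axes, from the 12-array model) of the 9 member probe sets in 3 comparisons; filled points passed an adjusted p under 0.05. All 9 points are positive for IL-12 2 h minus untreated 2 h and none is filled, while 4 probe sets fell and Gbp2/Gbp2b rose for IL-12 8 h minus IL-12 2 h.

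IL-12 8 h against IL-12 2 h follows time on the cytokine, and both runs hold both groups. The members took different courses. Irgm1, Iigp1 and Gbp5 fell, 3 of the 5 members with their own probe set, where 6.36% of all genes were called lower and 6.27% higher. Of the 4 shared sets the 6-gene Gbp set fell and Gbp2/Gbp2b rose, where 5.9% of all probe sets were called lower and 5.45% higher. The median change over the 9 sets was -0.19, against -0.01 over all genes. Over 7 CD4 T cell markers the median was 0.18, with 2 called higher and 0 lower. The part of that shift in the member changes was not tested. IL-12 8 h arrays lay wholly below IL-12 2 h arrays for Irgm1 and Gbp5, 2 of the 5, an arrangement of 4.23% of all genes.

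Irgm1 had 11.64, 11.63, 11.75 and 11.83 in the IL-12 8 h samples (numbers 2, 3, 5 and 6), against 11.94 to 12.18 in the IL-12 2 h samples given above. It fell by 0.36 on the log2 scale (SE 0.07, limma adjusted p = 0.00318). With the title number as a block, which uses the 4 numbers present at both times, the adjusted p was 0.029 and the call stood.

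Gbp5 had 10.88, 10.85, 10.93 and 10.74 in the IL-12 8 h samples, all below the 10.99 to 11.32 of the IL-12 2 h samples. It fell by 0.29 (SE 0.06, adjusted p = 0.00819). With the title number as a block the change was -0.29 and the adjusted p 0.0665, which no longer passed.

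Iigp1 had 10.04, 10.09, 10.29 and 10.13 in the IL-12 8 h samples, where the IL-12 2 h samples spanned 10.27 to 11.20, so that the groups overlapped at 1 array each. It fell by 0.68 (SE 0.14, adjusted p = 0.00446). With the title number as a block the change was -0.63 and the adjusted p 0.0529. Gbp7 (-0.19 ± 0.06, adjusted p = 0.0653) and Gbp3 (-0.05 ± 0.06, adjusted p = 0.703) did not pass in the same fit. For Gbp7 the call hung on single arrays, with an adjusted p of 0.0371 without IL-12 2 h array 5 and 0.0444 without IL-12 8 h array 5.

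The 6-gene probe set of Gbp6 and its neighbours had 11.65, 11.62, 11.73 and 11.58 in the IL-12 8 h samples, against 12.10, 12.05, 12.10, 12.03 and 12.03 in the IL-12 2 h samples. No array of one group reached the other, and the spread within groups was small. It fell by 0.41 (SE 0.05, adjusted p = 0.000234) and passed with each array left out, and with the block (adjusted p = 0.0117), but not when only arrays numbered 5 to 8 were fitted (-0.37, adjusted p = 0.116). Probe sets annotated to single genes of this neighbourhood had the same sign. Gbp11 fell by 0.50 (SE 0.08, adjusted p = 0.000775), Gbp9 by 0.37 (SE 0.08, adjusted p = 0.00686) and Gbp4 by 0.23 (SE 0.06, adjusted p = 0.0187). The call of Gbp4 was lost without IL-12 8 h array 3 (0.0642) and with the block (0.0905). Gbp8 had -0.27 ± 0.09 (adjusted p = 0.0682). These genes are near-identical in part, so their probe sets may share signal.

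Gbp2/Gbp2b ran the other way, with 13.50, 13.46, 13.46 and 13.43 in the IL-12 8 h samples, against 13.28, 13.31, 13.29, 13.28 and 13.18 in the IL-12 2 h samples. Gbp2 is the GBP known for recruitment to Toxoplasma vacuoles. The groups did not overlap, and the set rose by 0.20 (SE 0.05, adjusted p = 0.0179). The call was lost without IL-12 2 h array 6 (adjusted p = 0.0506), without IL-12 8 h array 2 (0.0629) and with the title number as a block (0.12), and the set did not pass in either run alone. The probe set of Gbp2b alone had a change of 0.03 ± 0.06 (adjusted p = 0.835).

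Of the remaining shared sets, Irgm2/Igtp had 11.33, 11.55, 11.55 and 11.54 in the IL-12 8 h samples and 11.55 to 11.75 in the IL-12 2 h samples (-0.16 ± 0.07, adjusted p = 0.166). Olfr56/Ifi47 had 10.37 to 10.50 at 8 h and 10.36 to 10.59 at 2 h (-0.05 ± 0.06, adjusted p = 0.718). Both pairs of groups overlapped.

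In the list of relatives 6 of 10 fell and 0 rose, with a median of -0.28. Beside Gbp11, Gbp9 and Gbp4 these were Gm4951 (-0.95 ± 0.16, adjusted p = 0.00157), Gm4841 (-0.42 ± 0.11, adjusted p = 0.0223) and Irgc1 (-0.28 ± 0.08, adjusted p = 0.0319). The last 2 lost the call without single arrays, Gm4841 without IL-12 2 h array 2 or 4 or IL-12 8 h array 2 or 3 (adjusted p up to 0.114), and Irgc1 without any of 7 arrays (up to 0.111), and both lost it with the block (0.0661 and 0.0512). Irgc1 was also dim, with means of 6.41 in IL-12 8 h and 6.72 in IL-12 2 h samples, below the gene median of 7.37. Both Tgtp1/Tgtp2 sets fell as well, by 0.36 and 0.35 (adjusted p = 0.0105 and 0.00992), and lost the call without IL-12 8 h array 3 (0.0524 and 0.0535) and with the block (0.0967 and 0.0854). Gm12250 (-0.15 ± 0.07), Irgq (0.14 ± 0.07) and the very large GTPase sets of Gvin1 (0.22 to 0.23) did not pass.

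In the interferon-gamma signalling list 9 of 19 fell and 0 rose, with a median of -0.22. They included Irf8, a transcription factor that binds with IRF1 (-0.92, adjusted p = 9.59e-07), the kinase gene Jak2 (-0.59, adjusted p = 0.000493), Ifngr2 (-0.49, adjusted p = 0.00203) and Irf1 (-0.35, adjusted p = 0.00276). Ifng itself fell by 0.55 (SE 0.14, adjusted p = 0.0227) and Socs1 by 0.38 (SE 0.10, adjusted p = 0.0227), both with calls lost without IL-12 2 h arrays 2, 3 or 4 or IL-12 8 h arrays 2 or 3 (up to 0.107 for Ifng and 0.115 for Socs1) and with the block (0.122 and 0.132). In the fit with a mean for each group and run, Ifng changed by -0.98 and Socs1 by -0.66 in numbers 2 to 4. In the run that holds the untreated arrays they changed by -0.03 and -0.05 (limma adjusted p = 0.929 and 0.844). Both falls thus rested on numbers 2 to 4. Ifngr1, the gene of the other receptor chain, had -0.22 ± 0.10 (adjusted p = 0.188) over both runs. In the fit with a mean for each group and run, Ifngr1 changed by 0.05 in numbers 2 to 4 (limma adjusted p = 0.761). In the run that holds the untreated arrays it fell by 0.54 (log2 change -0.54, limma adjusted p = 0.00194). Irf1 had 11.19, 11.26, 11.15 and 11.16 in the IL-12 8 h samples, against 11.72, 11.69, 11.71, 11.32 and 11.36 in the IL-12 2 h samples.

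Other interferon-induced genes divided. Of 21 antigen presentation genes and further interferon-gamma targets 6 fell and 2 rose, with a median of 0.01. The falls were led by Cd274, which encodes PD-L1 (-1.20, adjusted p = 5.39e-08), the chemokine genes Cxcl10 (-1.56, adjusted p = 2.97e-05) and Cxcl11 (-0.76, adjusted p = 0.0066, and 0.0621 with the block), and Nos2 (-0.64, adjusted p = 0.00169). Of 26 type I interferon-stimulated genes 9 fell and 2 rose, with Rtp4 (-0.79), Oasl2 (-0.56), Ifih1 (-0.72) and Ifit3 (-0.62) first by p.

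Of 11 genes of the ATG8 conjugation machinery, which guides these GTPases to vacuoles, 1 rose, Atg7 (0.28 ± 0.06 for IL-12 8 h minus 2 h, limma adjusted p = 0.00753), and 0 fell. Of 8 inflammasome genes linked to GBPs 2 rose and 0 fell, Casp1 (0.63, adjusted p = 0.00141) and its adaptor gene Pycard (0.38, adjusted p = 0.00109). The background shares were those given above, 6.27% higher and 6.36% lower.

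The fall in Iigp1 differed between the runs. Among numbers 2 to 4 it was -1.07 ± 0.09 (limma adjusted p = 6.73e-06), with 10.04 and 10.09 at IL-12 8 h against 11.20, 11.05 and 11.16 at IL-12 2 h. Among numbers 5 and 6 it was -0.20 ± 0.10 (adjusted p = 0.325), with 10.29 and 10.13 against 10.27 and 10.55. The difference between the runs was -0.87 ± 0.14 (adjusted p = 0.00627), and it passed with each of the 9 IL-12 arrays left out (adjusted p up to 0.0429). Iigp1 was the 1 of the 5 members with a probe set of their own that passed this interaction test, where 0.952% of all genes were called lower and 0.84% higher. Of the 4 shared sets 0 passed, where 0.746% and 0.622% of all probe sets were called.

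The run difference of Iigp1 itself passed at 2 h. IL-12 2 h arrays numbered 2 to 4 were higher than those numbered 5 and 6 by 0.73 ± 0.09 (limma adjusted p = 0.000168), while for IL-12 8 h the same difference was -0.14 ± 0.10 (adjusted p = 0.432). Gm4951 showed the same arrangement, with a run difference in the fall of -1.08 ± 0.15 (adjusted p = 0.00313), and so did Ifng (-0.95 ± 0.14, adjusted p = 0.00403). The Ifng values given above ran from 11.90 to 12.04 in IL-12 2 h arrays numbered 2 to 4 and were 11.25 and 11.20 in those numbered 5 and 6. In the interferon-gamma signalling list the run difference in the change from 2 h to 8 h was read only for Ifng, Ifngr1, Ifngr2, Irf1 and Socs1. It also passed for Ifngr1, Ifngr2 and Socs1, and in the receptor gene Ifngr1 it had the opposite sign. Ifngr1 had 0.60 ± 0.11 (adjusted p = 0.0174), Ifngr2 -0.52 ± 0.11 (0.0316) and Socs1 -0.61 ± 0.12 (0.0222). For these 3 the difference between numbers 2 to 4 and numbers 5 and 6 was larger in size in IL-12 8 h arrays than in IL-12 2 h arrays. It was 0.49 at 8 h and -0.11 at 2 h for Ifngr1, -0.76 and -0.24 for Ifngr2, and -0.43 and 0.17 for Socs1. The interaction did not pass for Irf1 (-0.30 ± 0.10, adjusted p = 0.171).

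Marker means of other cells also differed between the runs, in both IL-12 groups and not all in 1 direction. Macrophage markers, as given above, NK cell markers and CD8 T cell markers were lower in numbers 2 to 4. The CD8 T cell marker mean was 7.762 to 7.844 in IL-12 8 h and 7.844 to 7.914 in IL-12 2 h arrays numbered 2 to 4. In those numbered 5 and 6 it was 8.072 to 8.085 and 8.098 to 8.324. Over 7 of 8 listed B cell markers, the mean was 7.03 to 7.14 in IL-12 8 h and 7.16 to 7.24 in IL-12 2 h arrays numbered 2 to 4, against 6.77 to 6.91 and 6.81 to 6.97 in those numbered 5 and 6. Over 3 of 6 listed erythroid and platelet markers it was 7.83 to 8.13 and 7.44 to 8.09, against 6.67 to 6.89 and 6.83 to 7.23. B cell and erythroid markers were thus higher in numbers 2 to 4. The part of B cells, NK cells, CD8 T cells and erythroid cells in the run differences was not tested.

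For Irgm1 the fall was -0.47 ± 0.08 in numbers 2 to 4 (adjusted p = 0.00211) and -0.23 ± 0.09 in numbers 5 and 6 (0.171). For Gbp5 it was -0.40 ± 0.08 (0.00371) and -0.16 ± 0.08 (0.323). Neither interaction passed (adjusted p = 0.443 and 0.393), so a difference between the runs was not shown for them. The 6-gene Gbp set and Gbp2/Gbp2b gave near values in the runs, -0.45 ± 0.07 with -0.37 ± 0.07, and 0.18 ± 0.07 with 0.22 ± 0.07. For these 2 sets the run differences in the change were -0.07 ± 0.10 and -0.03 ± 0.10 (adjusted p = 0.832 and 0.938).

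**Figure D3:**
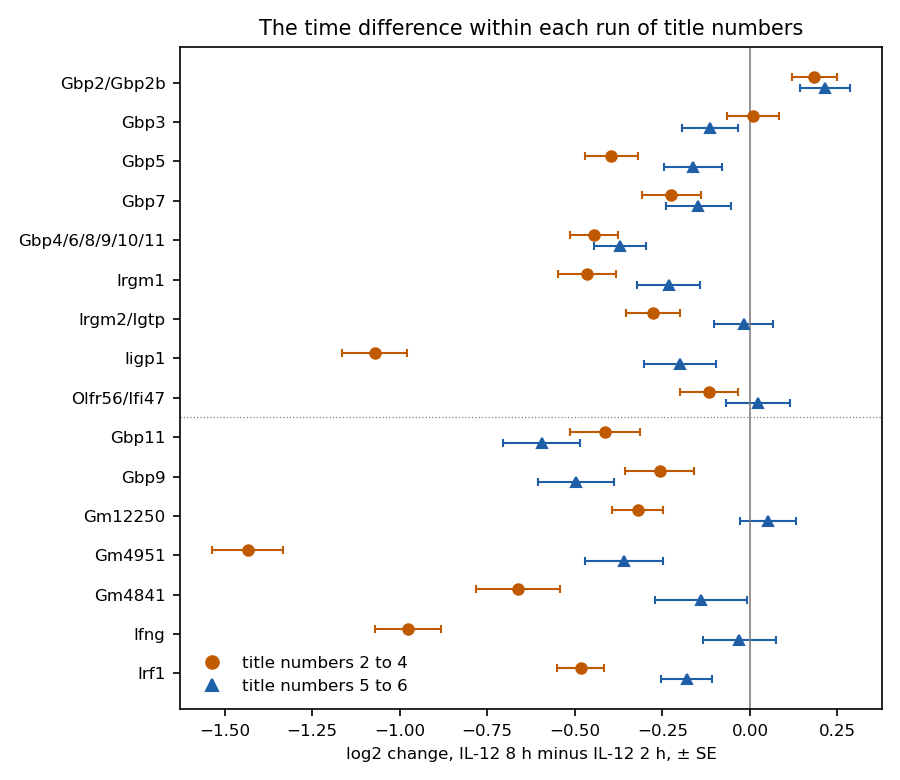
Log2 change ± SE for IL-12 8 h minus IL-12 2 h (horizontal axis) within title numbers 2 to 4 (circles, 2 against 3 arrays) and 5 to 6 (triangles, 2 against 2), for the 9 member probe sets above the dotted line and relatives, Ifng and Irf1 below it. For Iigp1 the circle lies at -1.07 and the triangle at -0.20, and Gm4951 and Ifng are parted alike.

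IL-12 8 h against untreated 2 h differs in time as well as in IL-12, which cannot be told apart here. It shares its untreated arrays with the first comparison, so each comparison's own values are given. Among members with their own probe set 0 of 5 passed, against 1.04% of all genes called higher and 2.13% lower, and 2 of 5 had an unadjusted p under 0.05, against 14.5% of all genes. Their changes were 0.24 ± 0.08 for Gbp3, 0.23 ± 0.09 for Gbp5, 0.18 ± 0.19 for Iigp1, 0.06 ± 0.09 for Gbp7 and 0.04 ± 0.09 for Irgm1. The sign of the last is not settled, nor is that of Iigp1, which was -0.09 against untreated and baseline arrays pooled. Compared among numbers 5 to 8, with the spread taken within group and run over all 12 arrays, Iigp1 stood at 0.42 (limma adjusted p = 0.0365). It did not pass when only arrays numbered 5 to 8 were fitted. IL-12 8 h arrays of 3 of the 5 members, Gbp3, Gbp5 and Iigp1, lay wholly above the untreated arrays, as did those of 11.8% of all genes.

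Gbp2/Gbp2b rose, the 1 of the 4 shared sets that passed, where 0.935% of all probe sets were called higher and 1.81% lower. It had 13.50, 13.46, 13.46 and 13.43 in the IL-12 8 h samples, against 13.03 and 13.02 in the untreated samples, and the baseline array stood at 13.03. The change was 0.41 ± 0.07 (limma adjusted p = 0.00463), a ratio of 1.33 in intensity. It passed with each array left out (adjusted p up to 0.049), but not with the mean of macrophage markers as a covariate (0.39, adjusted p = 0.131) nor among arrays numbered 5 to 8 alone (0.42, adjusted p = 0.0753).

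Changes of the other shared sets did not pass, with 0.21 ± 0.09 for Irgm2/Igtp, 0.11 ± 0.09 for Olfr56/Ifi47 and -0.06 ± 0.07 for the 6-gene Gbp set. The order of the groups thus differed between GBP probe sets. Gbp2/Gbp2b was highest at 8 h, with no overlap with either other group, and the 6-gene set was highest at 2 h, with its 8 h arrays (11.58 to 11.73) around the untreated ones (11.70 and 11.70). Gbp3 had 10, 9.95, 9.77 and 9.71 in IL-12 8 h, against 9.54 and 9.53 in untreated samples, and its IL-12 2 h arrays (9.77 to 10.02) lay at the level of the IL-12 8 h arrays.

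Of the 10 relatives with their own probe set 0 passed at 8 h against untreated. The 3 probe sets shared by Gvin1, Gm4070 and related sequences, very large interferon-inducible GTPases, rose by 0.59 to 0.70 (limma adjusted p between 0.00521 and 0.0127). Each lost the call without at least 1 untreated array (adjusted p up to 0.0971). Ifng rose, with 10.94, 11.07, 11.28 and 11.12 in the IL-12 8 h samples, against 9.69 and 9.40 (log2 1.39 ± 0.20, adjusted p = 0.00125). The model takes the run difference as the same in every group, and for Ifng it differed between 2 h and 8 h, as given above. Among numbers 5 to 8 the difference of its group means from untreated was 1.65 at 8 h and 1.68 at 2 h. In the interferon-gamma signalling list 2 of 19 rose and 2 fell, with a median of -0.06. Ifngr2 fell by 0.62 (SE 0.12, adjusted p = 0.0113, lost without either untreated array) and Irf8 by 0.45 (SE 0.09, adjusted p = 0.0147, and 0.156 without untreated array 7), while Usp18, a brake on interferon signalling, rose with Ifng (0.39, adjusted p = 0.0192, and 0.188 without untreated array 8 or 0.0783 without IL-12 8 h array 5). Ifngr1 (-0.39 ± 0.13, adjusted p = 0.162), Irf1 (-0.09 ± 0.09, 0.741) and Socs1 (-0.11 ± 0.14, 0.809) did not pass.

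Of the 21 antigen presentation genes and further interferon-gamma targets 1 fell and 1 rose at 8 h against untreated, with a median of 0.02. Cd274 fell by 0.97 (SE 0.09, limma adjusted p = 2.17e-05), and Ido1 rose (0.46 ± 0.10, adjusted p = 0.0193, lost without either untreated array or IL-12 8 h array 5 or 6, up to 0.136). Of the 26 type I interferon-stimulated genes 1 rose, Trim30a (0.46, adjusted p = 0.0035), and 2 fell, with a median of -0.02. The falls were Ifih1 (-0.63, adjusted p = 0.0175, lost without either untreated array, up to 0.134) and Rtp4 (-0.52, adjusted p = 0.0378, lost without any of 6 arrays, up to 0.285). Of the 11 ATG8 conjugation genes 0 passed. Casp1 (0.71, adjusted p = 0.0161) and Casp4 (0.48, adjusted p = 0.0064), 2 of the 8 genes of the inflammasome list, rose, each with the call lost without untreated array 7 and Casp1 also without IL-12 8 h array 5 (adjusted p up to 0.189).

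**Figure D4:**
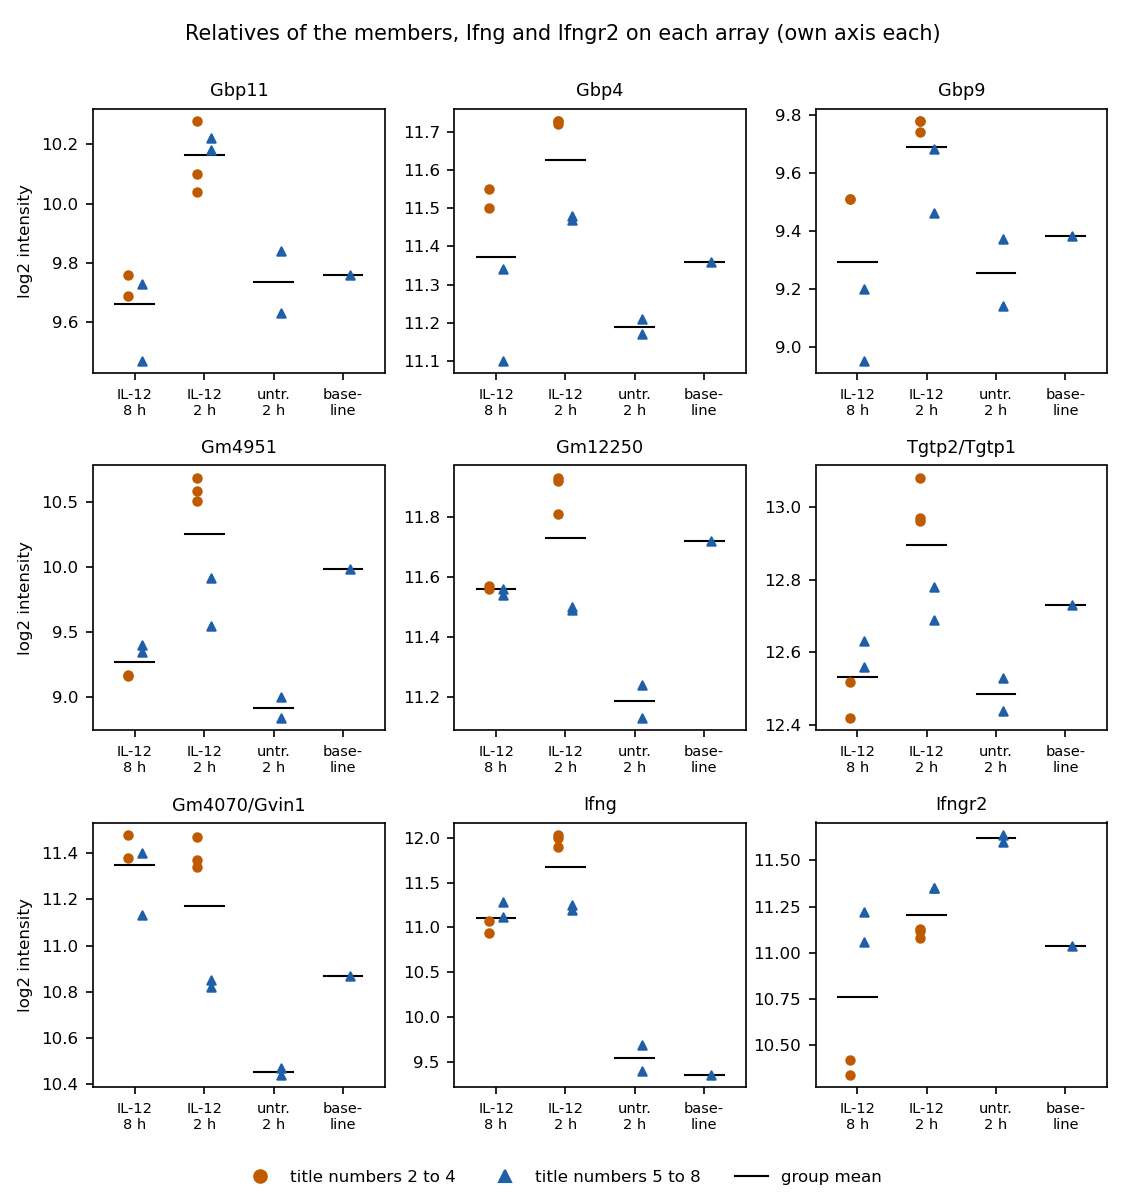
Log2 intensity (vertical axes, a separate range for each gene) of 7 relatives of the members, Ifng and Ifngr2 on each array, by group; circles are title numbers 2 to 4, triangles 5 to 8, and lines group means. Gbp11, Gbp4 and Gbp9 are highest at IL-12 2 h, and the Gm4951 and Ifng panels show the split of the IL-12 2 h arrays by run.

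Untreated 2 h against baseline rests on 1 baseline array, so the spread is that of the other groups and the baseline has no replicate check. Members went in opposite directions. Gbp3 had 9.54 and 9.53 in the untreated samples, against 9.11 in the baseline sample, and rose by 0.42 (SE 0.10, limma adjusted p = 0.018). Gbp5 had 10.54 and 10.54, against 10.09, and rose by 0.45 (SE 0.12, adjusted p = 0.0241). Iigp1 had 9.74 and 9.84, against 10.61, and fell by 0.82 (SE 0.25, adjusted p = 0.0497). These were 2 rises and 1 fall among 5 members, where 6.28% of all genes were called higher and 3.96% lower. Of the 4 shared sets 0 passed, where 5.49% and 3.8% of all probe sets were called, and 1 of 4 had an unadjusted p under 0.05, against 22.8% of all genes.

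Gbp7, whose gene adjoins Gbp5 and Gbp3, stood at 0.22 ± 0.11, and the IRG sets Irgm2/Igtp, Olfr56/Ifi47 and Irgm1 at -0.37 ± 0.12, -0.15 ± 0.12 and -0.11 ± 0.12, none of which passed. Irgm2/Igtp did pass without IL-12 8 h array 2 (adjusted p = 0.0353). Gbp2/Gbp2b and the 6-gene set were at -0.01 ± 0.09 and 0.01 ± 0.09. Among relatives Gm12250 (-0.53 ± 0.13, adjusted p = 0.0196) and Gm4951 (-1.07 ± 0.29, adjusted p = 0.0334) fell, 2 of 10, and 0 rose. Both probe sets shared by 9930111J21Rik1 and 9930111J21Rik2 fell by 0.50 (adjusted p = 0.0453 and 0.0446), with calls lost without any of 7 and any of 6 arrays. Of 26 type I interferon-stimulated genes 10 fell and 1 rose, with a median of -0.36, led by Dhx58 (-1.30, adjusted p = 3.35e-05).

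In the interferon-gamma signalling list 3 of 19 rose and 2 fell against baseline, with a median of -0.02. Ifngr2 rose by 0.58 (SE 0.16, limma adjusted p = 0.032, and 0.077 or 0.0967 without untreated array 7 or 8). Irf2 (0.54, adjusted p = 0.00352) and Jak2, the kinase gene, rose as well (0.60 for Jak2, adjusted p = 0.0258, and 0.109 without untreated array 8). The falls were Stat2 (-0.88, adjusted p = 0.000367) and Usp18 (-0.52, adjusted p = 0.008, and 0.0502 without untreated array 8). Ifng (0.19 ± 0.26, adjusted p = 0.728), Irf1 (-0.20 ± 0.12, 0.354), Ifngr1 (-0.39 ± 0.18, 0.204) and Socs1 (0.12 ± 0.18, 0.761) did not pass.

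Of the 21 antigen presentation genes and further interferon-gamma targets 2 rose and 4 fell against baseline, with a median of -0.18. Cd274 (1.02, limma adjusted p = 6.95e-05) and Cxcl10 (1.35, adjusted p = 0.00866) rose, and the immunoproteasome subunit gene Psmb9 (-0.58, adjusted p = 0.00455) was first among the falls. Of the 8 inflammasome genes 1 rose, Casp4 (0.51, adjusted p = 0.0102, and 0.0524 without untreated array 8), and 0 fell. Of the 11 ATG8 conjugation genes 0 passed.

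The 3 calls among members were not stable. All were lost without untreated array 7 (adjusted p = 0.14 for Iigp1, 0.0723 for Gbp5, 0.0572 for Gbp3) and without untreated array 8 (0.0976, 0.0673 and 0.0544). Iigp1 also lost its call without IL-12 2 h array 2, 3 or 4 (0.0539, 0.0647 and 0.0573). The call of Gm12250 was lost without untreated array 7 (0.0849) and that of Gm4951 without either untreated array (0.111 and 0.0667). With the baseline array put in the run numbered 2 to 4, Gbp5 and Gbp3 passed at 0.61 and 0.60 (adjusted p = 0.0448 and 0.0291), and Iigp1 stood at -0.48 (0.63). The macrophage marker mean was higher in the untreated arrays (6.64 and 6.75) than in the baseline array (6.5). With it as a covariate the change was -1.13 ± 0.41 for Iigp1 (adjusted p = 0.25), 0.32 ± 0.20 for Gbp5 (0.529) and 0.28 ± 0.17 for Gbp3 (0.519), so that none of the 3 passed, with a larger fall for Iigp1 and smaller changes for the GBP genes than without it.

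Markers of other cells differed from the baseline array as well. The mean over 3 of 6 listed erythroid and platelet markers was 6.77 and 7.20 in the untreated arrays, against 8.58 in the baseline array, with 2 of the 3 called lower and a median change of -1.96. B cell markers were at 6.80 and 6.84, against 7.25, with 2 of 7 called lower and a median of -0.29. NK cell markers were at 6.01 and 6.07, against 5.74, with 2 of 6 called higher and a median of 0.35. Of the 14 macrophage markers 2 were called higher, with a median of 0.05. CD8 T cell markers were at 8.227 and 8.385 in the untreated arrays, against 8.078 in the baseline array, with a median change of 0.228. The part of B cells, NK cells, CD8 T cells and erythroid cells in the changes of the members was not tested.

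The genes whose profile over the 12 arrays was most like the mean of the 9 member probe sets, after the run term was taken out, were Ankrd49, Prtg, 4933402E13Rik, 9930014A18Rik, Fes, Zfp933, Rapgef6 and F2. Their root mean square difference from the member mean was 0.06 to 0.08 in log2 units, among 8844 genes that varied at least 0.75 times as much, and the member mean itself had an SD of 0.17. None of the 8 is in the interferon lists. With the run left in, 2 of the 8 remained. By the same measure Gbp7 (0.08) and Irgm1 (0.09) followed the member mean most closely and Iigp1 (0.31) least.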

How the data were processed

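The deposited table holds linear intensities of 24922 probe sets on 12 arrays. Per the submitters' processing notes, the authors used RMA and Affymetrix Power Tools, versions and genome build not given in the sources used here. All 12 value columns matched 1 sample title, and 0 columns belonged to other samples. RMA equalises the arrays' distributions, so a change common to most genes would not show. Deposited intensities were put on the log2 scale here with no further normalization.

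The platform annotation listed 1 symbol for 21425 probe sets, several for 1399 and none for 2098. The brightest probe set stood for a gene, giving 19752 genes. limma 3.58.1 (R 4.3.3, lmFit and eBayes, two-sided) fitted 4 group means and a run term to all 12 arrays, with 7 residual and 6.84 prior degrees of freedom, and adjusted p by Benjamini-Hochberg over all genes, with a threshold of 0.05. No dim gene was filtered out. The 4 shared probe sets were read from a second fit over all probe sets, a choice made after seeing the annotation. The interaction fit had a mean for each group and run. Changes are given ± SE. Code was tested on simulated data. Python 3.11.15 and matplotlib 3.10.9 drew the plots.

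All 10 members, with Ifng, Irf1, Ifngr1, Ifngr2 and Socs1, are named in every comparison between groups whatever their result. The rule also covered family relatives and up to 4 genes of smallest p from each list; some of these are named and the rest stand in the counts. Members and lists were chosen with earlier results of these data known, and lists are described by counts and medians without a set test. Sequences come from RefSeq (GRCm38.p6).

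IL-12 samples at 2 h and 8 h share numbers 2, 3, 5 and 6 in their titles. Deviations from group means of same-numbered arrays correlated at 0.365, 0.300, 0.519 and 0.372, all above 0.1, so the numbers were taken to pair the samples and blocked values are given where they change a call. The pairing rests on these correlations, not on a label. Same-numbered arrays also share a run, so these correlations cannot tell pairing from a difference between the runs. After the run term the correlations were -0.397, -0.452, -0.149 and -0.395, so the pairing is not shown.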

Additional observations from a re-analysis of the deposited data

Results flagged for a closer look

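Gaps of single arrays were examined in 18 sets of arrays, 1 for each probe set in each of the IL-12 groups of 4 or 5, and chance flags about 1 in 20 such groups. In Irgm2/Igtp, IL-12 8 h array 2 (11.33) lay below the other 3 (11.54 to 11.55), a gap of 0.917 of the group's range. In Gbp2/Gbp2b, IL-12 2 h array 6 (13.18) lay below the other 4 (13.28 to 13.31), a gap of 0.761 of the range. Without that array the rise at 8 h against 2 h no longer passed (limma adjusted p = 0.0506).

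The change of Iigp1 for IL-12 8 h minus IL-12 2 h differed between the runs of title numbers, with -0.872 for numbers 2 to 4 minus numbers 5 to 6 on the log2 scale (adjusted p = 0.00627).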

How the results depend on the processing

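No change that passed turned its sign under any alternative that was run. Among changes that did not pass, some near 0 did, such as Iigp1 (0.18) at IL-12 8 h against untreated, at -0.09 with untreated and baseline arrays pooled. Counts of genes past the threshold moved most. For IL-12 2 h against untreated the 14 genes became 9 without the run term, 1 with arrays numbered 5 to 8 alone and 2 with the covariate of macrophage markers, and 2 to 14 with each array left out (9 without IL-12 2 h array 3, 2 without untreated 7 and 5 without untreated 8). For IL-12 8 h against 2 h the 2496 genes became 1246 with the fixed replicate block, 1108 with means by group and run taken in numbers 5 to 6, 871 without the run term and 363 with arrays numbered 5 to 8 alone, and 1525 (without IL-12 8 h array 3) to 2536 with each array left out. For IL-12 8 h against untreated the 625 became 243 without the run term, 320 in numbers 5 to 8, 139 with that covariate and 90 against untreated and baseline arrays pooled, and 267 (without untreated 8; 300 without untreated 7) to 663. For untreated against baseline the 2022 became 115 without the run term, 167 with the covariate and 204 with the baseline array put with numbers 2 to 4, and 1464 to 2222.

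Members with their own probe set that passed numbered 0 at IL-12 2 h against untreated and 1 under quantile normalization (Gbp5), a filter at the median intensity (Gbp5), an intensity trend with robust prior (Gbp5), a random replicate block (Gbp5) and means by group and run (Iigp1), and 0 to 1 with each array left out. At 8 h against 2 h the 3 became 1 with the fixed replicate block and 0 in numbers 5 to 6, by either fit, and 3 to 4 with each array left out. At 8 h against untreated the 0 became 1 with means by group and run (Iigp1, 0.42) and stayed 0 with each array left out. Against baseline the 3 became 0 without the run term, 0 with the covariate and 1 in numbers 5 to 8, and 0 to 3 with each array left out. The block changed no other call of a member than those given for Iigp1, Gbp5 and Gbp2/Gbp2b.

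The median member change for IL-12 8 h against 2 h, -0.19, was -0.15 in numbers 5 to 6 by either fit and -0.28 in numbers 2 to 4, and -0.23 to -0.16 with each array left out. For 8 h against untreated, 0.18, it was 0.23 without the run term, 0.25 with the covariate and 0.085 with the pooled controls, and 0.059 (without IL-12 8 h array 5; 0.12 without array 6, 0.13 without untreated 7) to 0.22 (without IL-12 8 h array 2). For 2 h against untreated, 0.35, it was 0.32 to 0.36, and against baseline, -0.01, it was -0.09 with the covariate and -0.01 to 0.00 with each array left out. Each result for a single probe set was counted again under every alternative setting and every left-out array. Among these counts 828 kept the call of the main fit, 13 gained and 40 lost it, so a result enters many times. Of the 8 genes most like the members, 2 remained with the run left in. The causes of these changes were not tested, other than that settings with fewer arrays have fewer degrees of freedom. The number of arrays, 2 untreated and 1 baseline, limits all comparisons with them.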
